A study of Homo sapiens with 6 samples.

Results

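The anti-apoptotic BCL2 family members MCL1, BCL2, BCL2L1, BCL2L2 and BCL2A1 were chosen by name, for their place in the family. They are 5 of the 61541 genes counted in H9 cells, and all 5 passed the filter on low counts that left 17678 genes for testing. H9 is a cell line of cutaneous T-cell lymphoma (CTCL), genotype WT, used in the study as an example of a line that does not depend on MCL-1 by BH3 profiling, an assay of mitochondrial priming. The study also tested MCL-1 dependence in a panel of cell lines with a selective MCL-1 inhibitor. RNA-seq was performed on 3 libraries of cells exposed to AZD4573, an inhibitor of the transcription elongation kinase CDK9. A further 3 libraries were of cells given the vehicle DMSO. The sample titles give 4 h for AZD4573 and no time for DMSO. The dose of 50 nM is from the study's figure legends, which also give 4 h, while the study's discussion speaks of 6 h. All 6 libraries came from this 1 line, and no label says that the replicates were separate cultures, so p-values measure the spread between these libraries, which may be technical.

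Proteins of the BCL2 family decide whether the outer mitochondrial membrane is permeabilized. The effectors BAX and BAK open the membrane, BH3-only proteins activate them or occupy their inhibitors, and the anti-apoptotic members bind both kinds of protein and hold them in check. MCL-1 has a short-lived mRNA and protein, whereas BCL-2 and BCL-xL, the main product of BCL2L1, are long-lived, and T-cell lymphomas differ in which of them they rely on.

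With AZD4573, MCL1 mRNA fell while BCL2, BCL2L1 and BCL2L2 mRNA rose. These are changes relative to the other mRNAs of a library, and mRNA per cell was not measured. BCL2A1 was too low to place. BCL2L2 was also low, at 30 to 47 counts with DMSO, and shares exon bases with other genes. MCL1 was 1.81-fold lower, BCL2 was 1.92-fold higher, BCL2L1 was 2.58-fold higher and BCL2L2 was 3.07-fold higher. Of the 5 members, 1 was lower and 3 were higher at an adjusted p under 0.05 (edgeR's quasi-likelihood test, Benjamini-Hochberg adjusted), where 37.4% of all genes tested were lower and 37.3% were higher. These 4 members were also those counted by the rule of the study, which asks for at least a 1.5-fold change with p under 0.05 and which 23.9% of all genes passed as lower and 23.1% as higher. With the adjusted p in that rule the shares of all genes were 23.7% and 22.7%, and the same 4 members passed. When at least a 2-fold change was asked for, no member was lower and 2 were higher, BCL2L1 and BCL2L2, against 13.9% and 15.0% of all genes. The groups of libraries did not overlap for the same 4 members, as for 38.7% of all genes in the lower and 39.0% in the higher direction.

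Library totals ran from 52101868 to 63795185 counts with AZD4573 and from 70367303 to 76571157 with DMSO, and AZD4573 replicate 1 was the shallowest. The H9 label was checked against T-cell markers: with DMSO, 10 of 12 were at or above 1 CPM (counts relative to the library total after TMM scaling), among them CD3D and CD3E, while CD2 and CD7 were below it. Summed levels of these T-cell markers were 1381 to 1408 CPM with DMSO and 1627 to 1735 with AZD4573. Of 6 B-cell markers 2 reached 1 CPM with DMSO, CD79A and CD79B, with sums of 61.0 to 67.1 against 92.5 to 103 CPM. CD79A made up most of these sums, at 57.8 CPM with DMSO and 93.6 CPM with AZD4573. With DMSO it stood between the T-cell markers CD4 (3.83 CPM) and CD3D (143 CPM). Of 6 myeloid markers none reached it, with sums of 0.293 to 0.533 against 1.16 to 2.18 CPM, and MPO was at 0 in every DMSO library. Of 6 epithelial and stromal markers 2 reached it, EPCAM and COL1A1, with sums of 156 to 173 against 137 to 141 CPM. The part of these markers in the results was not tested. The 13 mitochondrially encoded mRNAs, which a separate polymerase transcribes, took 3.04 to 3.22% of counts with DMSO and 4.67 to 4.98% with AZD4573.

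MCL1 (ENSG00000143384, GRCh38 chr1:150560895-150579738, minus strand) encodes MCL-1, which restrains BAK and binds the BH3-only proteins NOXA and BIM. Its level, in CPM after TMM scaling, was 153, 155 and 154 with DMSO, and with AZD4573 it was 81.5, 85.5 and 88.0. Every AZD4573 library was below every DMSO library, and AZD4573 replicate 1 was the lowest. Mean levels were 154 ± 1.06 CPM with DMSO and 85.0 ± 3.28 CPM with AZD4573 (SD, n = 3 each). The log2 fold change was -0.86 ± 0.04 (SE), with an adjusted p of 1.0e-09 by edgeR's quasi-likelihood test. Of all genes tested, 17.4% had a lower log2 fold change. Of the 6222 exon bases of MCL1, 328 lie also in ADAMTSL4-AS1 and 43 in ADAMTSL4. These low genes stood at 0.1103 and 0.294 CPM over the summed DMSO counts and at 0.855 and 2.35 over the summed AZD4573 counts. Here and below, CPM over summed counts is relative to raw totals, without the TMM factors.

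BCL2L1 (ENSG00000171552, GRCh38 chr20:31664452-31723989, minus strand) encodes BCL-xL, which restrains BAX and BAK, and by alternative splicing the pro-apoptotic BCL-xS. Gene-level counts do not separate these forms, nor the long and short forms of MCL1. The level of BCL2L1 was 845, 831 and 795 CPM with DMSO and 1928, 2266 and 2190.1 CPM with AZD4573. The groups did not overlap, and AZD4573 replicate 1 was the lowest of its group. The mean rose from 824 ± 25.5 to 2128 ± 177 CPM, a log2 fold change of 1.37 ± 0.06 with an adjusted p of 2.4e-10 by edgeR's quasi-likelihood test. BCL2L1 was already among the most abundant transcripts with DMSO, where 0.975% of genes had a higher level per kilobase. Its exons share 1735 of 4197 bases with ABALON on the opposite strand, a low transcript at 0.556 CPM over the summed DMSO counts and 1.11 CPM over the summed AZD4573 counts.

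BCL2 (ENSG00000171791, GRCh38 chr18:63123346-63320128, minus strand) encodes BCL-2, the founding member of the family and the target of venetoclax. Its level was 96.2, 95.4 and 93.4 CPM with DMSO and 173, 190.1 and 185 CPM with AZD4573. All AZD4573 libraries were above all DMSO libraries, with AZD4573 replicate 1 again the lowest of its group. The mean rose from 95.02 ± 1.43 to 183 ± 8.70 CPM, a log2 fold change of 0.94 ± 0.05 with an adjusted p of 6.4e-10 by edgeR's quasi-likelihood test.

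BCL2L2 (ENSG00000129473, GRCh38 chr14:23298790-23311751, plus strand) encodes BCL-w, a relative of BCL-2 and BCL-xL. It was counted at 30, 33 and 47 expected counts with DMSO and at 74, 80 and 101 with AZD4573, or 0.382, 0.451 and 0.638 against 1.45, 1.40 and 1.65 CPM. The groups did not overlap, but the gene was near the bottom of what these libraries could measure. The mean rose from 0.490 ± 0.132 to 1.504 ± 0.133 CPM, a log2 fold change of 1.62 ± 0.25 with an adjusted p of 4.5e-05 by edgeR's quasi-likelihood test. Of its exon bases, 815 of 4840 are shared with the readthrough BCL2L2-PABPN1, 315 with PPP1R3E and 149 with HOMEZ, the last 2 on the opposite strand. PPP1R3E stood at 17.6 CPM over the summed DMSO counts and 41.3 CPM over the summed AZD4573 counts, and HOMEZ at 10.8 and 7.57. RSEM was run with default parameters, which do not use strand, so reads of these genes cannot be told apart by strand. With the readthrough added, the log2 fold change of BCL2L2 was 1.56.

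BCL2A1 (ENSG00000140379, GRCh38 chr15:79960892-79971196, minus strand) encodes BFL-1, an NF-kB target in lymphocytes. It was counted at 19, 7 and 12 expected counts with DMSO and at 4, 4 and 11 with AZD4573. These are 0.242, 0.0956 and 0.163 CPM against 0.0786, 0.0702 and 0.180 CPM, and the groups overlapped. The log2 fold change was -0.58 ± 0.55 with an adjusted p of 0.354 by edgeR's quasi-likelihood test, so that a change was not detectable at this depth. Over the summed counts of each group the level was 0.175 CPM with DMSO (95% Poisson interval 0.124 to 0.240) and 0.108 CPM with AZD4573 (0.0652 to 0.169). These levels are relative to raw totals without the TMM factors, and the intervals cover counting error only.

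**Figure D1:**
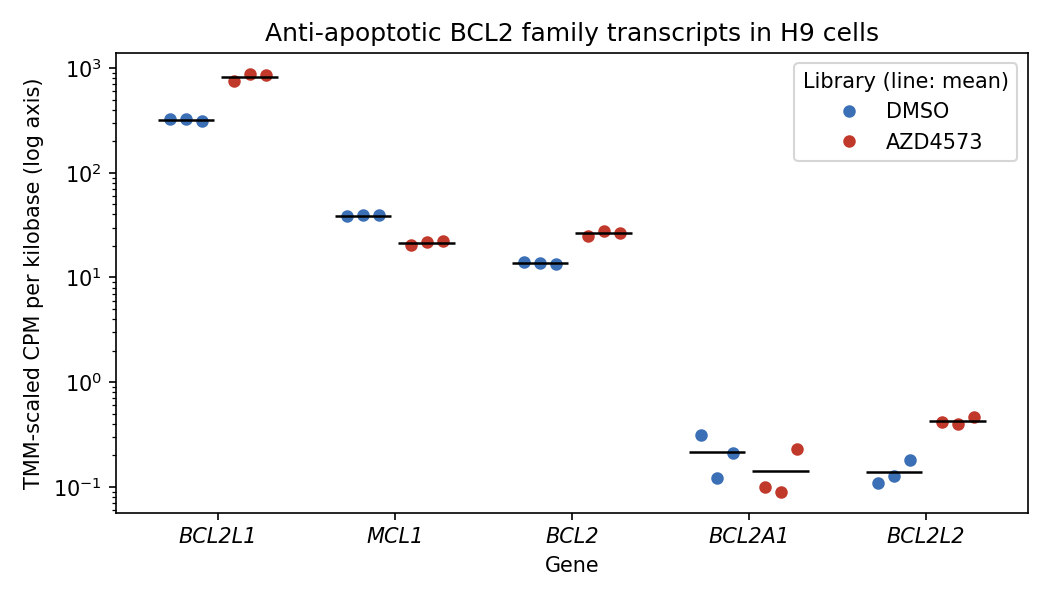
Level of each member in each library as points, in TMM-scaled CPM per kilobase on a log axis, with a line at the mean of each group. MCL1 lies lower with AZD4573, BCL2, BCL2L1 and BCL2L2 lie higher, and the BCL2A1 points of both groups overlap.

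The changes of the members were set beside those of all genes, whose median log2 fold change was 0.03. TMM scaling itself places this median close to no change. It was -0.079 with library size alone and -0.71 with the mitochondrial scaling. Genes with a higher log2 fold change than BCL2 made up 16.4% of those tested, and the share was 11.1% for BCL2L1 and 9.16% for BCL2L2. In bulk RNA, fewer cells that express a gene and less RNA per cell cannot be told apart.

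**Figure D2:**
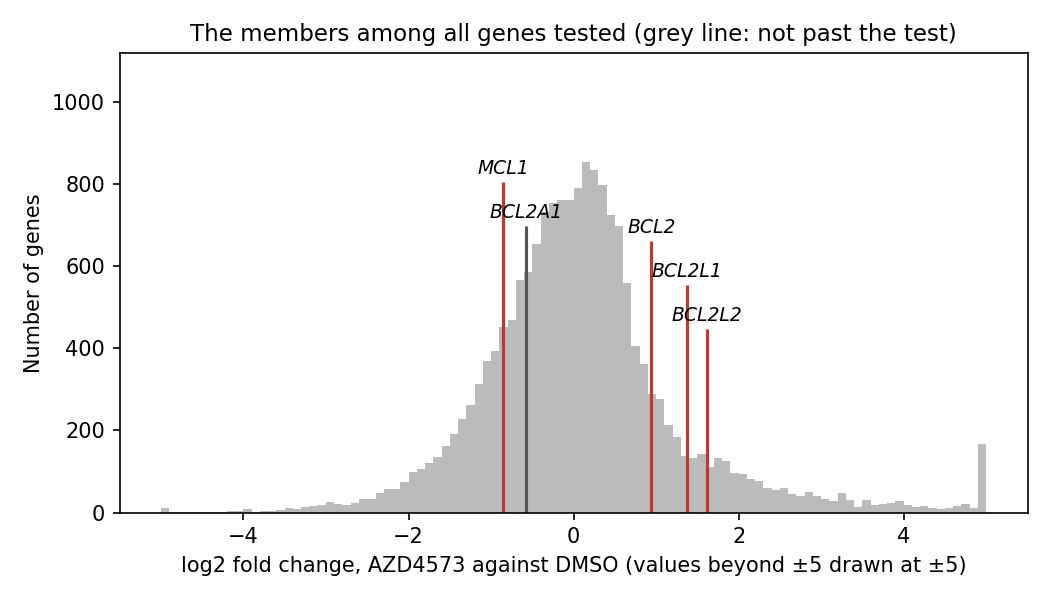
Histogram of log2 fold changes, AZD4573 against DMSO, over the 17678 genes tested, with a line for each member and values beyond ±5 drawn at ±5. MCL1 is at -0.86, BCL2 at 0.94, BCL2L1 at 1.37 and BCL2L2 at 1.62, with BCL2A1 at -0.58 not called.

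The 4 called members kept their direction and an adjusted p under 0.05 under each scaling run (TMM, RLE, library size alone and mitochondrial mRNAs) and in DESeq2. With each library scaled to its mitochondrially encoded mRNAs, the median of all genes moved to -0.71, with an adjusted p under 0.05 for 67.2% of genes as lower and 12.1% as higher, and MCL1 was at -1.60, BCL2 at 0.20, BCL2L1 at 0.63 and BCL2L2 at 0.88. Relative to that median all 3 members that rose stayed above it, and the rise of BCL2 was the smallest of them, with an adjusted p of 0.00373 by edgeR's quasi-likelihood test, the highest over its alternatives. BCL2 no longer reached a 1.5-fold change in this scaling, so that 2 members in place of 3 were higher by the rule of the study. This scaling takes the mitochondrial mRNAs as unchanged, which was not tested. BCL2A1 passed the threshold in this scaling, at -1.32 with an adjusted p of 0.0400, where its other alternatives reached up to 0.770.

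**Figure D3:**
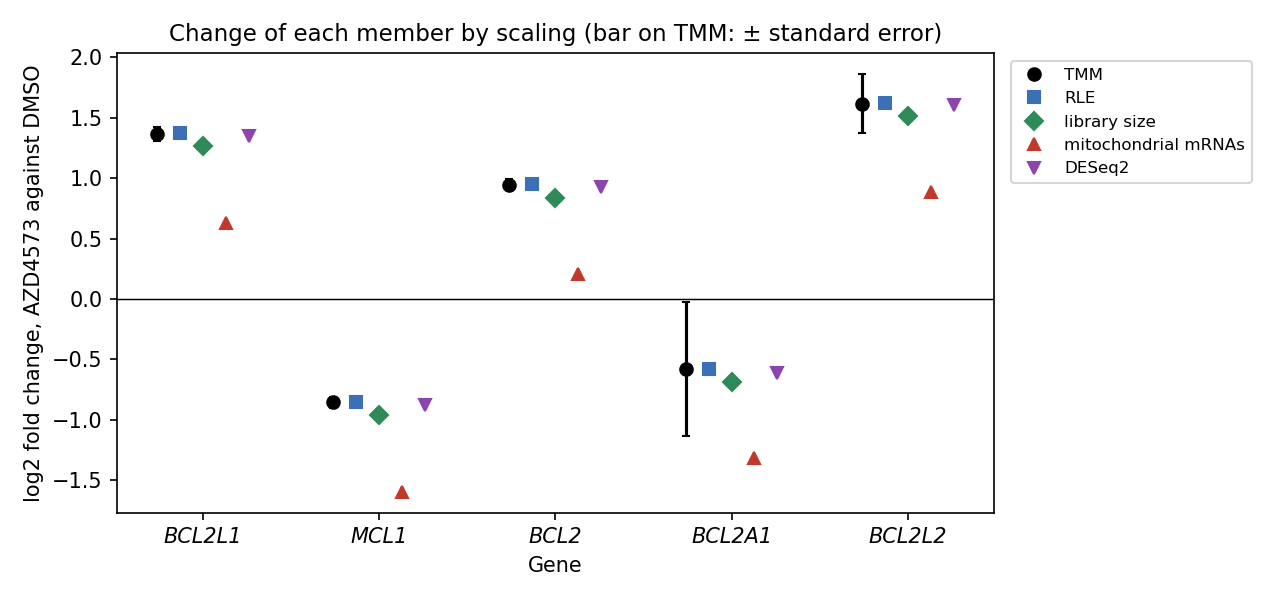
Log2 fold change of each member under 4 scalings in edgeR and in DESeq2, with the standard error on the TMM value. The mitochondrial scaling (red triangles) lowers every value, and MCL1, BCL2, BCL2L1 and BCL2L2 keep their sign under each.

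Levels were compared between members per kilobase of the canonical transcript (CPM per kb). With DMSO, BCL2L1 was highest at 320.05 ± 9.89, followed by MCL1 at 39.0 ± 0.269 and BCL2 at 13.8 ± 0.208. BCL2A1 at 0.214 ± 0.0941 and BCL2L2 at 0.139 ± 0.0375 came last, and their ranges overlapped. With AZD4573, BCL2L1 stood at 827 ± 68.9, BCL2 at 26.6 ± 1.26 and MCL1 at 21.5 ± 0.831, so that BCL2 and MCL1 exchanged places. That exchange rested on a 1.23-fold difference, and with the bases of all annotated exons as length the ranges of BCL2 and MCL1 overlapped, at 14.5 and 13.7 CPM per kb. BCL2L2 at 0.427 and BCL2A1 at 0.141 stayed last.

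A ratio of 2 members inside a library does not depend on the scaling between libraries. The per-kilobase ratio of MCL1 to BCL2 was 2.82 ± 0.0575 with DMSO and 0.811 ± 0.0239 with AZD4573, a 3.48-fold lower value. The ratio of BCL2L1 to MCL1 was 8.21 ± 0.294 with DMSO and 38.4 ± 2.19 with AZD4573. In 8 of 10 pairs the groups did not overlap, each with p = 0.10 in an exact two-sided permutation test. That p is the smallest that 3 against 3 libraries allow, and it was 0.125 after adjustment over the pairs. The pairs reuse the same members, so they are not independent of each other. The share of all gene pairs that separate was not counted, so this count has no background of pairs. Among all genes tested, the groups did not overlap for 38.7% in the lower and 39.0% in the higher direction. The pairs that overlapped were MCL1 with BCL2A1, at -0.22 in the log2 ratio (exact permutation p = 0.70), and BCL2L1 with BCL2L2, at -0.28 (exact permutation p = 0.40). The MCL1 to BCL2A1 ratio turned positive without DMSO replicate 2, at 0.14, or without AZD4573 replicate 3, at 0.19. The BCL2L1 to BCL2L2 ratio was at -0.10 without DMSO replicate 1 and at -0.51 without DMSO replicate 3.

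Of the summed per-kilobase level of the 5 members, MCL1 held 10.1, 10.4 and 10.8% with DMSO, and 2.59, 2.33 and 2.47% with AZD4573. The groups did not overlap, and the means were 10.4 ± 0.331 and 2.47 ± 0.134% (exact two-sided permutation p = 0.10, the smallest possible). BCL2L1 held 85.8 ± 0.376% with DMSO and 94.4 ± 0.238% with AZD4573. BCL2 held 3.70 ± 0.0434% and 3.04 ± 0.108%, a smaller share although its level rose. The summed level was 373 ± 9.92 CPM per kb with DMSO and 875 ± 70.9 with AZD4573, 2.35-fold higher after TMM scaling. Unlike the shares, this sum depends on the scaling between libraries. BCL2L1, which made up most of it, had a log2 fold change of 1.37 with TMM and 0.63 with the mitochondrial scaling.

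**Figure D4:**
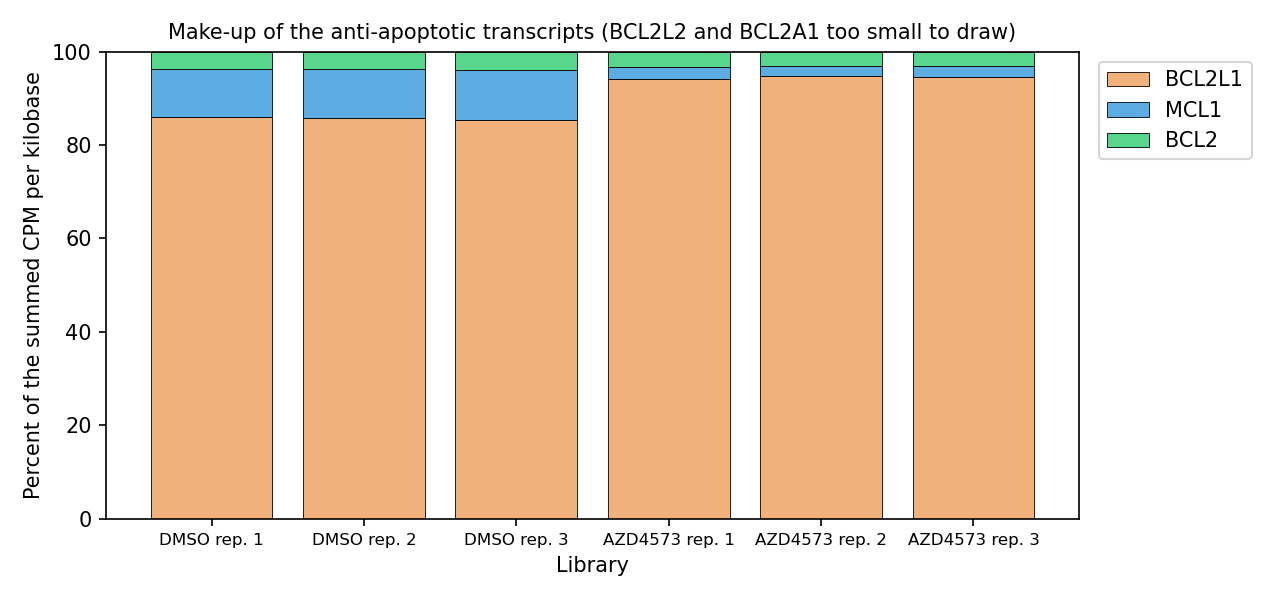
Share of each member in the summed level of the 5 members, in percent of CPM per kb, for each library as a stacked bar from 0 to 100. The mean share of BCL2L1 is 85.8% with DMSO and 94.4% with AZD4573, that of MCL1 is 10.4% and 2.47%, and BCL2L2 and BCL2A1 are too small to be seen.

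AU-rich elements, built from the pentamer ATTTA, are a sequence feature of many unstable mRNAs, and the 3′ UTRs of the canonical transcripts were searched for it. MCL1 had 10 in 2817 bases, or 3.55 per kb, more than 80.6% of 13294 tested coding genes. BCL2 had 13 in 5279 bases (2.46 per kb, more than 65.2% of genes). By number alone, 91.0% of genes had fewer than BCL2 and 85.9% had fewer than MCL1. BCL2 also had the only nonamer TTATTTATT among the members, which 9.24% of genes hold. BCL2L1 had 3 in 1491 bases (2.01 per kb, more than 57.3% of genes). BCL2L2 had 5 in 2786 bases (1.79 per kb, more than 53.7% of genes), and BCL2A1 had none in 175 bases. The median gene has 1.59 per kb, and 70.9% of genes hold at least 1. The 30-base window with the most pentamers in each is given here, 5′ to 3′ on the gene's strand in GRCh38, with the pentamers in capitals:
MCL1 chr1:150576222-150576251 (-): catttgacctaATTTAactggtgaaATTTA
BCL2 chr18:63128356-63128385 (-): taagaaaaaaagATTTATTTATTTAagaca
BCL2L1 chr20:31665767-31665796 (-): tagttttctagaATTTAtcacacttctgtg
BCL2L2 chr14:23310143-23310172 (+): tgacctagaagcATTTAtgATTTAtttgaa
MCL1, which fell, and BCL2, BCL2L1 and BCL2L2, which rose, were all above the median gene in pentamers per kb. The part of the pentamers in these changes was not tested. A match is a description of the sequence and not of a site in use.

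BCL2 and BCL2L1 both rose, and their RefSeq promoter windows (GRCh38.p14, 250 bases before to 50 after the start) were read for that reason. BCL2L2 rose too, but the promoters used held no entry for BCL2L2 or MCL1. The window of BCL2A1, whose change was not called, was searched too but is not printed. The motifs searched on both strands were GGGCGG (in 44.95% of 35116 promoters), TATAAA (11.53%), CCAAT (34.61%), an NF-kB-like motif (25.59%), TTCNNNGAA (7.657%), AGATAA (10.33%), TGACGTCA (1.848%) and CACGTG (7.256%). The BCL2 window had 70.67% GC and 31 CpG, against medians of 58.7% and 14, and 1 match to the NF-kB-like motif. BCL2L1 had a window of 52% GC with 2 matches to TATAAA and another of 61.33% GC with 1 match to GGGCGG. BCL2A1 had 1 match to TATAAA and 1 to TTCNNNGAA. The windows are given here 5′ to 3′ on the minus strand, with motif matches in capitals:
BCL2 chr18:63319720-63320019: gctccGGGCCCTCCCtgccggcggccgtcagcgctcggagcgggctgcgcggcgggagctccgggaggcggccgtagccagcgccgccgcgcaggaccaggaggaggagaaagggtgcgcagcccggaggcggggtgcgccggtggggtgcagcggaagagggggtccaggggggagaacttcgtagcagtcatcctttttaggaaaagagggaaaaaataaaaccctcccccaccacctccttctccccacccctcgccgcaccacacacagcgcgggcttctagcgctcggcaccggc
BCL2L1 chr20:31723914-31724213: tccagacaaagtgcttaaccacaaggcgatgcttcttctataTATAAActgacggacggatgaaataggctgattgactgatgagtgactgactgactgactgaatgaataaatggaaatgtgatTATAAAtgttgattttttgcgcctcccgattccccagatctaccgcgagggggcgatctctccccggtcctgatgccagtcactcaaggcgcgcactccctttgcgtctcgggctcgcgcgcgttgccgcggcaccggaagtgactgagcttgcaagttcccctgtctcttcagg
BCL2L1 chr20:31722819-31723118: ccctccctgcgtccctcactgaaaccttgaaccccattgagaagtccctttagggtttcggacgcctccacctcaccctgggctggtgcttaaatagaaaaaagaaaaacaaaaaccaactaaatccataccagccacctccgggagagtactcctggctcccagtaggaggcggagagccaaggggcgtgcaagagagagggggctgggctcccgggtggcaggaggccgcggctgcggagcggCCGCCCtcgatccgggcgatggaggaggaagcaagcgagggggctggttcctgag
No motif of those searched was matched in both BCL2 and BCL2L1. No match says only that these letters are not in the window.

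The mRNAs of the proteins that the members act on were examined next. Among the effectors, BAK1, whose protein BAK is bound by MCL-1 and BCL-xL, fell from 47.5 ± 1.48 to 26.7 ± 1.54 CPM (log2 fold change -0.83, adjusted p of 1.9e-08 by edgeR's quasi-likelihood test). BAX rose from 46.0 ± 0.740 to 51.2 ± 0.723 CPM (0.16, adjusted p of 0.00810 by edgeR's quasi-likelihood test), a direction that turned with the mitochondrial scaling to -0.58. That call was lost without DMSO replicate 3, at 0.13 (adjusted p of 0.0559 by edgeR's quasi-likelihood test, with 7.6e-07 to 0.329 over its alternatives), and also with library size alone (0.05) and with no filter (0.11). BOK was below the filter, at 0.129 and 0.188 CPM. BCL2L10, a further anti-apoptotic gene outside the 5, was counted at 3 to 4 with DMSO and 14 to 15 with AZD4573. It passed the filter on low counts only through the AZD4573 libraries, so its fitted log2 fold change of 2.34 ± 0.49 had to be a rise.

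Of 8 BH3-only genes, 3 fell, 2 rose and 3 did not pass the test, with a median log2 fold change of -0.0027, whereas 7 were lower and none higher with the mitochondrial scaling. Of all genes tested 37.4% were lower and 37.3% higher, or 67.2% and 12.1% with the mitochondrial scaling, and the counts of this and the following lists are to be read against these shares. These lists were written with earlier results of these data known. BCL2L11, which encodes BIM, fell from 320 ± 5.94 to 257 ± 5.55 CPM. BMF, a sensor of cytoskeletal stress, fell by 0.61 on the log2 scale, and BBC3, which encodes PUMA, fell by 0.53 from 4.41 to 3.05 CPM. PMAIP1, which encodes the MCL-1 partner NOXA, rose from 75.3 ± 3.63 to 91.0 ± 3.89 CPM, a log2 change of 0.27 that became -0.47 with the mitochondrial scaling. BIK passed the test at 0.22 but was -0.53 with the mitochondrial scaling, and its call was lost without DMSO replicate 2 (0.19) or 3 (0.19) and without AZD4573 replicate 2 (0.20) or 3 (0.13), in DESeq2 (0.20), with no filter (0.17) and with library size alone (0.11). BID stood at -0.06, BAD at 0.06 and HRK at 0.75, with adjusted p of 0.310, 0.417 and 0.1099 by edgeR's quasi-likelihood test. Overlapping genes share 727 of 6742 exon bases of BCL2L11 and 461 of 5447 of BMF.

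Of 9 genes of MCL-1 protein turnover, 5 fell and 2 rose, with a median of -0.41, and all 9 were lower with the mitochondrial scaling. USP13, a deubiquitinase of MCL-1, was at -1.57 and FBXW7, which targets MCL-1 for degradation, at -1.22. HUWE1, a ubiquitin ligase of MCL-1, rose to 860 ± 29.6 from 579 ± 22.7 CPM (0.57, or -0.17 with the mitochondrial scaling), and JOSD1, a deubiquitinase, rose by 0.22 (or -0.51). Reads of USP13 could be shared with overlapping genes over 2499 of its 15296 exon bases.

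Of 9 upstream transcription factors, 4 fell and 3 rose, with a median of -0.12, against 9 lower with the mitochondrial scaling. CREB1 fell from 51.3 ± 1.41 to 16.6 ± 2.23 CPM and MYB, a lymphoid regulator, from 399 ± 10.5 to 179 ± 4.51 CPM. STAT5B and STAT3, which act on BCL2L1 and MCL1 in T cells, rose by 0.49 and 0.19, values that turned to -0.25 and -0.54 in that scaling.

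Of 9 apoptosome and mitochondrial genes, 7 fell and 1 rose, with a median of -0.78. VDAC2, which brings BAK to the mitochondrion, was at 0.11 (adjusted p of 0.0485 by edgeR's quasi-likelihood test), or -0.63 with the mitochondrial scaling. The VDAC2 call was lost without DMSO replicate 2 (0.08) or 3 (0.09) and without AZD4573 replicate 2 (0.09) or 3 (0.09), in DESeq2 (0.09), with no filter (0.06) and with library size alone (0.0021).

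For comparison, of 15 mRNAs known as short-lived 5 fell, 7 rose and 3 did not pass, with a median of 0.07. PIM1 was at -1.19 and ZFP36 at -0.92, while CCND1 was at 1.52, from 0.402 to 1.16 CPM and so above 1 CPM with AZD4573 alone, and KLF6, a zinc-finger factor, at 1.32. Of 10 housekeeping mRNAs, 2 fell and 7 rose, with a median of 0.35, against 9 lower with the mitochondrial scaling. ACTB was at -0.56 and TBP at -0.14, while B2M was at 0.68 and EEF1A1 at 0.58, values that became -0.06 and -0.16 in that scaling. EEF1A1 and ACTB have processed pseudogenes, among which reads are split by estimation, and 497 of 4761 exon bases of CCND1 are shared with LTO1.

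**Figure D5:**
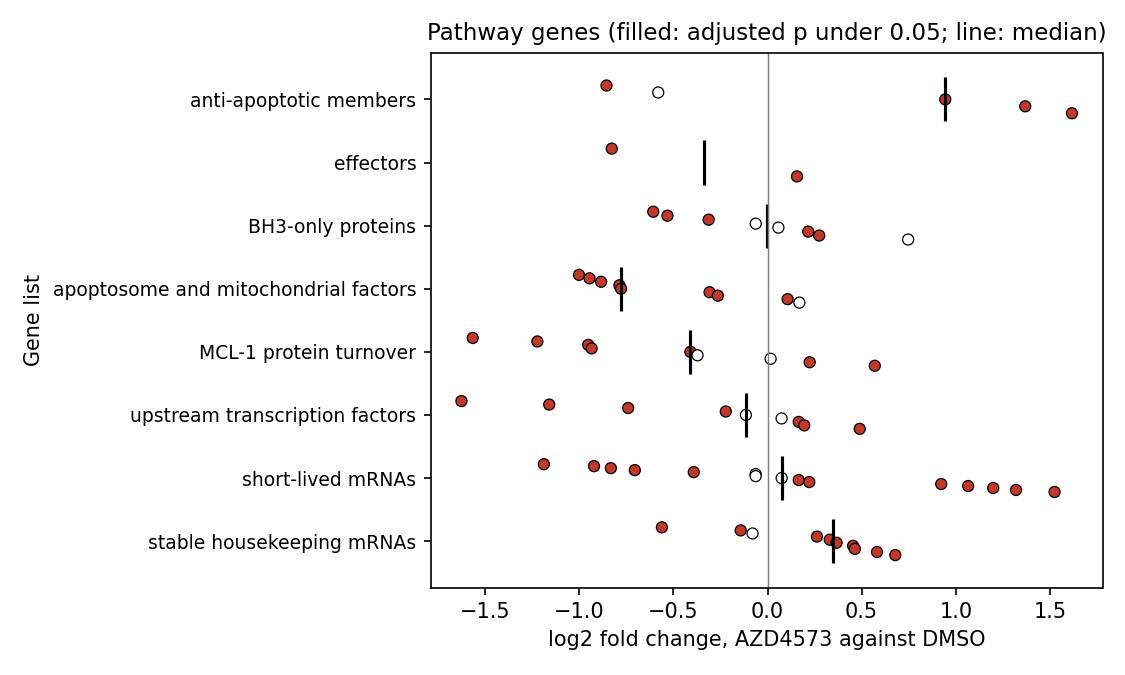
Log2 fold change of each gene in the pathway lists, by list in rows, filled where the adjusted p is under 0.05 and with a line at the median of the list. MCL1 and most apoptosome genes lie below 0, and BCL2, BCL2L1 and BCL2L2 lie above it.

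The genes whose profile over the 6 libraries was most like that of each member were found among 9051 genes by the root mean square difference of centred log2 CPM. For MCL1 these were STX12 at 0.0196, SLC2A3 at 0.0232 and DHCR7 at 0.0237. For BCL2 these were PREX1 at 0.0116, C2orf68 at 0.0246 and CCDC144B at 0.0301. For BCL2L1 these were ZKSCAN1 at 0.0361, KLF6 at 0.0468 and DUSP6, a phosphatase of ERK, at 0.0478. The profiles of BCL2L2 and BCL2A1 were dominated by the offset of 0.5 CPM used in the logarithm and are described only by their nearest genes, STX16-NPEPL1 at 0.0599 and SPR at 0.0255.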

How the data were processed

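RNA-seq of H9 cells was analysed in 3 AZD4573 and 3 DMSO libraries, grouped from the sample titles. The authors deposited expected counts per gene from RSEM, and the submitters' processing notes name cutadapt 2.3, STAR 2.7.8a and RSEM 1.3.3 with GRCh38. The labels give poly(A) selection and the study's supplemental methods rRNA depletion. RSEM was run with default parameters, which do not use strand, and reads of overlapping genes are split by estimation. The deposited expected counts were rounded to whole numbers, 5 reporter rows at 0 counts were left out, and genes were kept by edgeR's filterByExpr (minimum count 10), which left 17678. edgeR 4.0.16 (TMM, quasi-likelihood) in R 4.3.3 with limma 3.58.1 was the main test, with Benjamini-Hochberg adjustment, and DESeq2 1.42.0, the study's tool, was an alternative. The study's rule was p under 0.05 with a fold change of at least 1.5. On simulated data the fit recovered 200 of 200 changed genes and called 8 of 17478 unchanged ones. The changed genes were drawn from those above 1 CPM with DMSO, with as many raised as lowered and a fixed dispersion. The simulation therefore does not test the scaling when most genes change, nor calls of genes as low as BCL2L2 and BCL2A1. Libraries of a group differed by more than sampling noise (chi-square per degree of freedom 5.59 to 21.2). Same-numbered libraries did not deviate together (correlations -0.00724, 0.0707 and -0.0203).

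The members were chosen by name and the gene lists from general knowledge, both with earlier results of these data known. Named genes are the 5 members, BCL2L10, all effector and BH3-only genes, the 2 largest falls and the 2 largest rises of each other list among called genes of at least 1 CPM, and for each member the 3 genes of at least 10 CPM with the nearest profile. The 2 largest falls of the apoptosome list are not reported here. Levels per kilobase used the canonical GENCODE transcripts, and promoters came from RefSeq. Other scalings, filters, lengths, the replicate block and each library left out were tried.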

Additional observations from a re-analysis of the deposited data

How the results depend on the processing

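MCL1 stayed lower and BCL2, BCL2L1 and BCL2L2 stayed higher in every alternative run. Their log2 changes with 1 library left out were -0.89 to -0.83, 0.91 to 0.98, 1.32 to 1.43 and 1.45 to 1.84, and BCL2A1 ran from -1.16 to -0.22. The MCL1 to BCL2A1 log2 ratio ran from -0.54 to 0.19, reversing at 0.14 and 0.19. With the replicate number as a block, the pairing changed no member's call (MCL1 -0.86, BCL2 0.94, BCL2L1 1.37, BCL2L2 1.63, BCL2A1 -0.58), and BIK and VDAC2 lost theirs. With the mitochondrial scaling BCL2A1 was at -1.32 and 2 members were lower by either rule, while 2 in place of 3 were higher by the study's rule, BCL2 being lost. At a fold change of at least 2 no member (0) was lower. With all exons as length the DMSO levels were 24.7 (MCL1), 7.53 (BCL2), 196 (BCL2L1) and 0.101 (BCL2L2) CPM per kb, and the MCL1 share differed by -8.26 percentage points (AZD4573 minus DMSO).

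In the mitochondrial scaling, where 67.2% of all genes were lower and 12.1% higher, genes lower and higher were 2 and 0 (effectors), 7 and 0 (BH3-only), 9 and 0 (turnover), 9 and 0 (transcription factors), 10 and 4 (short-lived) and 9 and 0 (housekeeping), with 0 higher among apoptosome genes. Scaled by library size only, 0 effectors, 1 BH3-only and 0 apoptosome genes were higher. The median of all genes was -0.079 in that scaling. The share of all genes called there was not counted, so these counts have no background to be read against. Reversed in the mitochondrial scaling were BAX (-0.58), BAD (-0.68), PMAIP1 (-0.47), BIK (-0.53), HUWE1 (-0.17), JOSD1 (-0.51), STAT5B (-0.25), STAT3 (-0.54), VDAC2 (-0.63), B2M (-0.062) and EEF1A1 (-0.16). BAD was at -0.047 by library size only and ran from -0.0037 to 0.088 with 1 library left out. The causes were not tested. BCL2A1 was not tested where at least 10 counts in every library were required. Depth limits BCL2L2 and BCL2A1.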
